A study of Mus musculus with 16 samples.

Results

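The extracellular matrix proteases Mmp2, Mmp3, Mmp9, Mmp12, Mmp13 and Mmp14, the inhibitors Timp1, Timp2 and Timp3, and the lysosomal protease Ctsk (cathepsin K) were followed through mouse melanomas given radiation, a drug, or both. The 10 genes were found in the deposited count table by matching gene identifiers to symbols. They are 10 of 46078 genes in the table, and the 10 all passed the filter on low counts that left 16101 genes for testing. The tumours grew from B16F10-GP cells, B16F10 being a pigmented melanoma line of the C57BL/6 mouse, set in 25% Matrigel on the flanks of female C57BL/6 mice aged 6 to 8 weeks. The host has the same strain background as the cells and an intact immune system, and a bulk library mixes tumour cells with the stroma around them. Control tumours are labelled untreated, while the protocol speaks of vehicle, and the labels were taken to mean the same group. The 5 Gy group had X-rays at that dose to the right flank on day 10. In the QH-II-066 group the drug, named only by its code and described as enhancing GABA-A receptors of melanoma cells, was injected at 10 mg/kg daily for 7 days from day 10. The combined group had the radiation in the morning and its first injection in the evening. Each group has 4 libraries. The labels state neither the flank that was sampled nor separate mice, so p-values measure the spread between these libraries, which may be partly technical.

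Matrix metalloproteases are zinc enzymes, made as inactive precursors, that cut collagens, elastin, proteoglycans and other proteins outside the cell. Mmp14 is anchored in the cell membrane, where a complex with Timp2 brings the Mmp2 precursor to be cut into its active form. The tissue inhibitors of metalloproteases (Timp) bind the active site of the enzymes, and Timp3 is itself held in the matrix. Cathepsin K is a cysteine protease that degrades collagen, best known from osteoclasts and also made by activated fibroblasts. In solid tumours fibroblasts, macrophages and other infiltrating cells are well-known sources of these enzymes beside the tumour cells, and RNA levels do not tell how much enzyme is active.

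Promoters of several metalloprotease genes are textbook targets of AP-1, the Fos and Jun transcription factor. The stretch before the start site is shown for 6 of the genes, which differ in the motifs it holds. RefSeq promoters of GRCm38.p6, the assembly called mm10, were matched for 8 of the 10 genes, with none printed for Mmp2 and Mmp9. Each line gives the 75 bases before a start site, 5′ to 3′ on the gene's strand, and capitals mark a match to 1 of the 3 motifs searched. The motifs were the AP-1 site TGAGTCA, the TATA box TATAAA and the GC box GGGCGG, which do not overlap each other here, each searched on both strands of the 300 bases from 250 before to 50 after the start. The stretches lie on the plus strand at chr9:7445747-7445821 (Mmp3), chr9:7272439-7272513 (Mmp13), chr9:7347299-7347373 (the second of the starts listed for Mmp12), chr3:95499135-95499209 (Ctsk), chr14:54431523-54431597 (Mmp14) and chrX:20870091-20870165 (Timp1).
Mmp3: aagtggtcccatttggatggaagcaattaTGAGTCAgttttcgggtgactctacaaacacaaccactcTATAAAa
Mmp13: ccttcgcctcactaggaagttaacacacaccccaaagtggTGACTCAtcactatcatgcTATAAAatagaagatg
Mmp12: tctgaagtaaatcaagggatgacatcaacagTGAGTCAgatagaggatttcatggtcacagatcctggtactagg
Ctsk: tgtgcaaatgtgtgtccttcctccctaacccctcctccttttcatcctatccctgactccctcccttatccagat
Mmp14: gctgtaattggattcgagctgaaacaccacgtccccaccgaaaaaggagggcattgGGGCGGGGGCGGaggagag
Timp1: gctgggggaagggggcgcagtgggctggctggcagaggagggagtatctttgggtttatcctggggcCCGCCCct
The AP-1 match began 46 bases before the start in Mmp3, 44 before the second start of Mmp12 and 35 before that of Mmp13, where it lies on the other strand. These 3 genes were the members with this match, and 5.2% of 32851 promoters of the same length hold it. Mmp3 and Mmp13 also have a TATA box in the stretch shown, as do 13.6% of the promoters anywhere in the window. Mmp14 has 2 GC boxes side by side and Timp1 has 1, and Timp2 and Timp3 hold a GC box in their windows too. GC boxes occur in 35.7% of the promoters, so the motif is common. No match of these letters was found in the Ctsk window, nor in that of the first start listed for Mmp12. The AP-1 match of Mmp12 thus depends on the start that is read. A match is a description of the sequence and not a site shown to be used.

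In mm10, the build named in the submitters' processing notes, Mmp13 (ENSMUSG00000050578, 7272514 to 7283333), Mmp12 (ENSMUSG00000049723, 7344381 to 7369499) and Mmp3 (ENSMUSG00000043613, 7445822 to 7455972) lie on the plus strand of chromosome 9, among 10 metalloprotease genes within 427072 bases. Of that run, Mmp1a, Mmp7 and Mmp20 had 0 counts in the 16 libraries. Mmp2 (ENSMUSG00000031740) lies on chromosome 8 at 92827328 to 92853417, Mmp9 (ENSMUSG00000017737) on chromosome 2 at 164940780 to 164955850 and Mmp14 (ENSMUSG00000000957) on chromosome 14 at 54431612 to 54441265. Ctsk (ENSMUSG00000028111) is found on chromosome 3 at 95499256 to 95509362, Timp1 (ENSMUSG00000001131) on X at 20870166 to 20874735 and Timp3 (ENSMUSG00000020044) on chromosome 10 at 86300372 to 86349506, all on the plus strand. Timp2 (ENSMUSG00000017466) is on the minus strand of chromosome 11 at 118301069 to 118355740. Fragments were counted over exons without regard to strand. Of the 8144 exon bases of Timp3, 1733 (21.3%) overlap exons of Syn3 on the opposite strand, and 157 of the 7237 exon bases of Mmp12 (2.17%) overlap Mmp1b, so fragments there cannot be assigned with certainty.

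Libraries held 6994198 to 40799942 counted fragments. Melanocyte markers such as Pmel, Tyr and Dct were high throughout, with a summed level of 16000 to 26900 CPM (counts scaled to library size) over 8 genes. Skin and muscle transcripts were uneven. Replicates 2 and 4 of the 5 Gy group and replicates 2, 3 and 4 of the combined group had a mean log2 CPM of 3.69 or more over 9 tested skin epithelium genes, and the other 11 libraries were at -0.94 or less. These 5, all from irradiated groups, are called the libraries with skin transcripts. Of the 16101 genes, edgeR's quasi-likelihood test found 202 higher and 1 lower after 5 Gy at a Benjamini-Hochberg adjusted p under 0.05, which is 1.26% called. That count was 0 when 5 Gy replicate 2 or untreated replicate 1, 2 or 3 was left out, and 136 when it was untreated replicate 4; leaving out replicate 1, 3 or 4 of the 5 Gy group gave 370, 739 and 101.

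In untreated tumours the genes stood at very different levels. Levels of different genes are compared per kilobase of exon, as RPKM (CPM per kilobase), mean ± SD over 4 libraries. Mmp14 was at 53.5 ± 7.54 RPKM, next to Timp1 at 46.0 ± 17.8 and Timp2 at 42.8 ± 4.20, and the libraries of Timp1 overlapped those of both. Mmp14 lay above Timp2 in each of the 4 untreated libraries. A lower tier followed with Ctsk at 5.16 ± 1.15, Mmp2 at 4.83 ± 0.735, Mmp3 at 4.52 ± 2.54, Mmp12 at 3.10 ± 2.05, Mmp13 at 2.90 ± 0.695 and Timp3 at 2.57 ± 1.02 RPKM, each within the spread of its neighbours. Mmp9 was lowest, at 0.481 ± 0.338 RPKM.

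Irradiated tumours were first set against untreated ones, to ask what radiation alone did. The gelatinase Mmp2, the stromelysin Mmp3 and cathepsin K rose to between 3.05 and 4.40 times their untreated level, while membrane-bound Mmp14 and the 3 inhibitors did not pass the test. Mmp2, which cleaves denatured collagen and basement membrane, read 61.5, 64.3, 50 and 31.7 CPM (scaled by the TMM method) in the 4 irradiated libraries and 16, 13.5, 12.1 and 17 CPM in the untreated ones. The groups did not overlap, and the lowest irradiated library was replicate 4. Its log2 fold change was 1.82 ± 0.29 (SE; edgeR adjusted p = 0.0227; 95% interval 1.2 to 2.44), the eighth smallest p of all genes tested.

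Ctsk read 22.9, 33.2, 18.6 and 20.4 CPM after 5 Gy and 8.05, 6.46, 6.52 and 10.2 CPM in untreated tumours. Again every irradiated library lay above every untreated one. The log2 fold change of Ctsk was 1.61 ± 0.27 (SE; edgeR adjusted p = 0.0227; 95% interval 1.04 to 2.18). Mmp3, a stromelysin that cuts proteoglycans, fibronectin and other precursors of the family, read 36.7, 37.5, 55.8 and 13.3 CPM against 9.42, 4.58, 4.48 and 14 CPM. Irradiated replicate 4 was below untreated replicate 4, so the groups overlapped, while the other 3 irradiated libraries were far above. Its log2 fold change was 2.14 ± 0.45 (SE; edgeR adjusted p = 0.0386; 95% interval 1.18 to 3.10).

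Mmp9, the other gelatinase and the least abundant of the 10 genes, read 6.62, 5.23, 14 and 3.32 CPM after 5 Gy against 0.368, 2.85, 1.02 and 2.57 CPM. The libraries did not overlap and the log2 fold change was 2.10 ± 0.60 (SE), but the adjusted p was 0.0794 in edgeR and 0.00603 in DESeq2. Mmp9 was thus close to Mmp3 in fold, 4.30 against 4.40, with a wider error (95% interval 0.83 to 3.37). Every irradiated library was above every untreated one for 3 of the 10 genes (Mmp2, Mmp9 and Ctsk), against 5.97% of all genes tested.

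**Figure D1:**
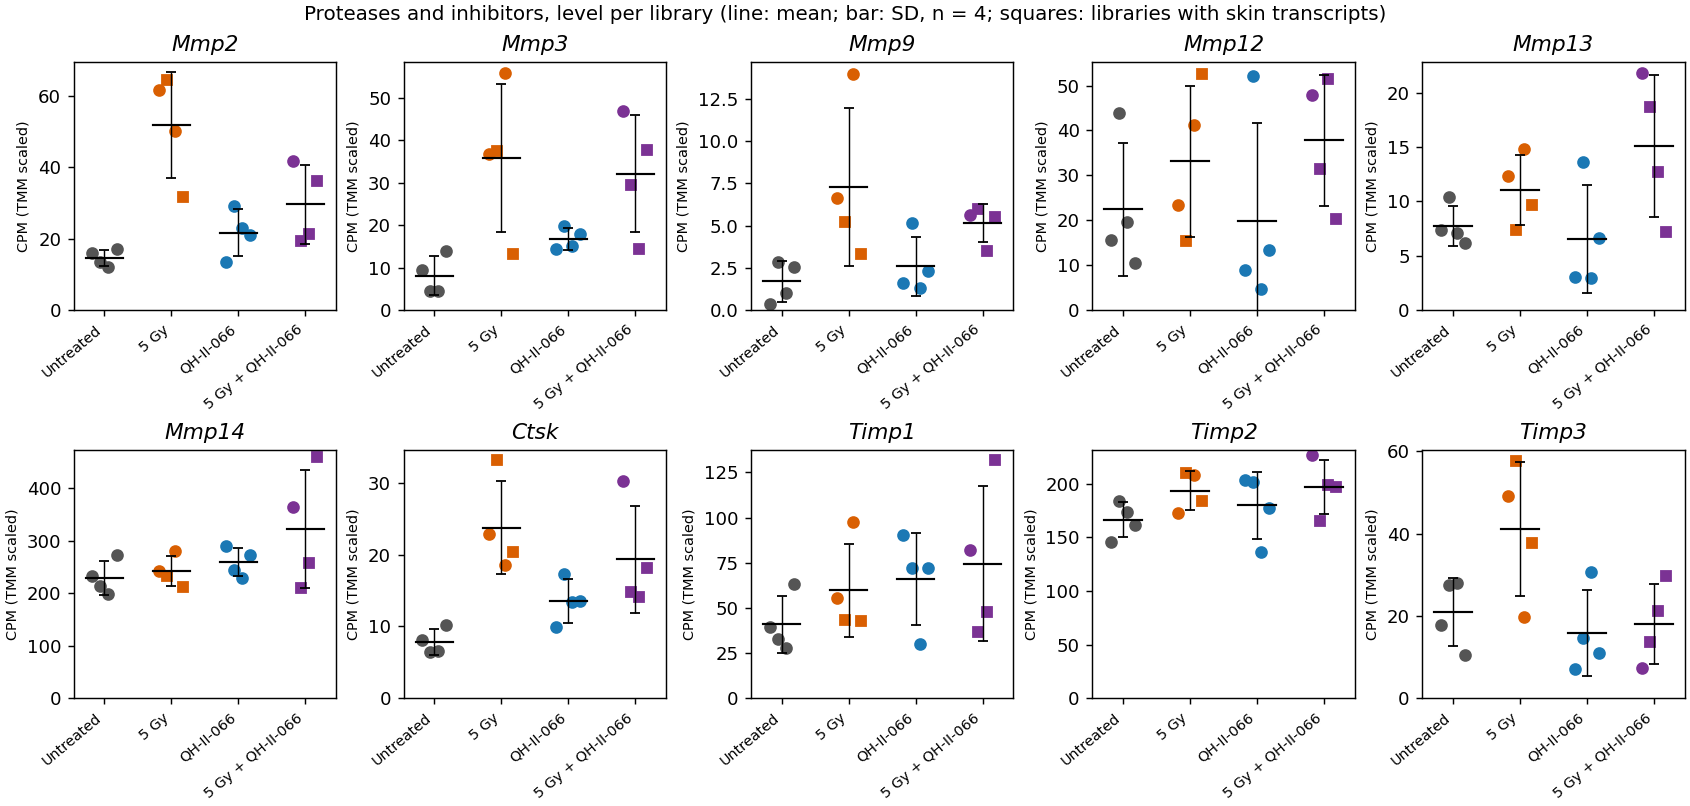
Level of the 10 genes in each library, in CPM scaled by TMM, on axes that start at 0, with the mean (line) and SD (bar, n = 4) of each group; squares are the 5 libraries with skin transcripts. Mmp2 and Ctsk sit above the untreated tumours in all 4 irradiated libraries, and the groups overlap for Mmp14 and Timp2.

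The other genes did not pass the test after 5 Gy. Mmp12, the macrophage elastase, ran from 15.3 to 52.5 CPM in irradiated and from 10.4 to 43.9 CPM in untreated libraries, which is a log2 fold change of 0.56 ± 0.64 SE (adjusted p = 0.720 in edgeR). Mmp13, a collagenase of fibrillar collagen, was at 11 ± 3.20 CPM against 7.75 ± 1.86 CPM (SD, n = 4; log2 fold change 0.51 ± 0.44, SE). Mmp14 was at 242 ± 28.9 CPM against 230 ± 32.4 CPM. The 95% interval of its log2 fold change was -0.34 to 0.49, where that of Mmp2 was 1.2 to 2.44. The difference between these genes was not tested. Among the inhibitors, Timp1 was at 59.7 ± 25.9 CPM against 40.8 ± 15.8 CPM, with 97.5 CPM in irradiated replicate 3 and no more than 63.4 CPM in untreated libraries. Timp2 was at 194 ± 17.9 CPM against 167 ± 16.4 CPM, for a log2 fold change of 0.22 ± 0.14 SE (adjusted p = 0.513 in edgeR). Timp3 read 49.1, 57.7, 19.8 and 37.8 CPM after 5 Gy against 17.8, 27.4, 28 and 10.6 CPM, and its log2 fold change of 0.97 ± 0.49 (SE) had an edgeR adjusted p of 0.369. For Timp3, 3 irradiated libraries were above every untreated one and replicate 3 lay among them.

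Of the 10 genes, 3 were called higher and 0 lower after 5 Gy, where 1.26% of all genes were called. The fitted log2 fold change was above 0 for 10 of 10 genes, with a median of 0.77, and the median over all tested genes was -0.08. The 7 proteases had a median of 1.61 and the 3 inhibitors one of 0.55. The calls were sensitive to single libraries, while the fold changes moved little. Without 5 Gy replicate 2 the log2 fold changes were 1.71 for Mmp2, 1.41 for Ctsk and 2.12 for Mmp3, with edgeR adjusted p = 0.0856, 0.0856 and 0.125. Without untreated replicate 1, 2 or 3 they lay between 1.53 and 2.22, with adjusted p between 0.0754 and 0.171. With the muscle score as a covariate they were 1.90, 1.64 and 2.28, and the adjusted p was 0.0537, 0.0590 and 0.0689. Without the 5 libraries with skin transcripts the log2 fold changes were 1.93 ± 0.26 for Mmp2 (adjusted p = 0.0477), 1.41 ± 0.25 for Ctsk (0.0814) and 2.51 ± 0.41 for Mmp3 (0.0620), with 2 irradiated libraries left.

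Markers of some cell types were also higher after 5 Gy. Over all 16101 tested genes 1.26% were called and the median log2 fold change was -0.08, so 0 called in a short list says little. The 9 fibroblast markers (Pdgfra, Dcn and Lum among them) were all detected, with 5 of 9 called higher after 5 Gy, and their summed level was 389 to 786 CPM in irradiated and 79 to 171 CPM in untreated libraries. The 10 macrophage markers were all detected too, with 3 of 10 called higher, and summed to 1140 to 2180 CPM against 428 to 1210 CPM. Of 7 osteoclast markers 5 were tested and none was called, and they summed to 19.4 to 42.8 CPM against 12.4 to 31.3 CPM. Of the 5 tested, 4 had a log2 fold change above 0, with a median of 0.59. Acp5 had the most counts of the list over the 16 libraries, 7019, and Calcr, the calcitonin receptor of osteoclasts, had 0. Of 10 neutrophil markers 4 were tested and 0 called, and they summed to 1.71 to 6.55 CPM against 0.863 to 2.10 CPM. Of the 4 tested, S100a8, S100a9, Ltf and Cxcr2, 3 had a log2 fold change above 0, with a median of 1.70. Ly6g, Ngp, Elane and Mpo were at or near 0 and were not tested. The 8 adipocyte markers, with 0 called, summed to 185 to 385 CPM after 5 Gy against 21.8 to 138 CPM, also without overlap. Of 6 endothelial markers 1 was called higher, and they summed to 146 to 253 CPM against 108 to 156 CPM. For the 10 skeletal muscle markers, with 0 called, the sums were 4.66 to 2660 CPM against 4.08 to 118 CPM. Of 10 skin epithelium markers 9 were tested and 0 called, and they summed to 0.54 to 2600 CPM against 0.0769 to 0.869 CPM. All 8 melanocyte markers had a fitted log2 fold change below 0, with a median of -0.33 and 0 called. The part of these cells in the protease levels was not tested. In bulk tumour RNA, more cells of a type and more RNA per cell cannot be told apart.

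The comparison of QH-II-066 with untreated tumours asked what the drug alone did. Mmp3 and Ctsk had the largest fitted log2 differences, 1.05 and 0.79, and none of the 10 genes passed the test. Mmp3 read 14.3, 19.9, 15.1 and 18 CPM in the drug group. All 4 were above the untreated libraries, the highest of which was at 14 CPM, and the log2 fold change was 1.05 ± 0.44 (SE; edgeR adjusted p = 0.546). Mmp3 was 1 of 10 genes without overlap, against 1.37% of all genes tested. Ctsk read 9.89, 17.3, 13.4 and 13.5 CPM, with replicate 1 just inside the untreated range, and its log2 fold change was 0.79 ± 0.26 (SE; edgeR adjusted p = 0.546; 95% interval 0.23 to 1.35). Mmp2 was at 21.7 ± 6.51 CPM (SD, n = 4), a log2 fold change of 0.56 ± 0.28 (SE).

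Mmp12 and Mmp13 were the most scattered of the 10 genes under the drug. Mmp12 read 9, 52.2, 4.61 and 13.3 CPM, for a log2 fold change of -0.18 ± 0.64 (SE). Mmp13 read 3.03, 13.6, 2.91 and 6.58 CPM, and its value was -0.24 ± 0.44. In both genes replicate 2 was high and replicates 1 and 3 were low. Timp1 was at 66.0 ± 25.6 CPM, with replicate 3 lowest at 29.7 CPM and a log2 fold change of 0.69 ± 0.42 SE (adjusted p = 0.546 in edgeR). Mmp14, Timp2 and Mmp9 had log2 fold changes of 0.18 ± 0.20, 0.11 ± 0.14 and 0.61 ± 0.58 (SE), and that of Timp3 was -0.41 ± 0.49. Fibroblast markers summed to 140 to 312 CPM and macrophage markers to 836 to 1350 CPM in the drug group, with 0 of 9 and 0 of 10 called, and their part was not tested. In this comparison edgeR called 0 of 16101 genes (0% of them, with 1316 at an unadjusted p under 0.05) and DESeq2 called 16, none of them among the 10. With sample weights limma-voom called 4647 of the 16101 genes. Among them were 3 of the 10, Mmp3, Ctsk and Timp1 (limma-voom adjusted p = 0.0361, 0.0149 and 0.0206), a share close to that over all genes.

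**Figure D2:**
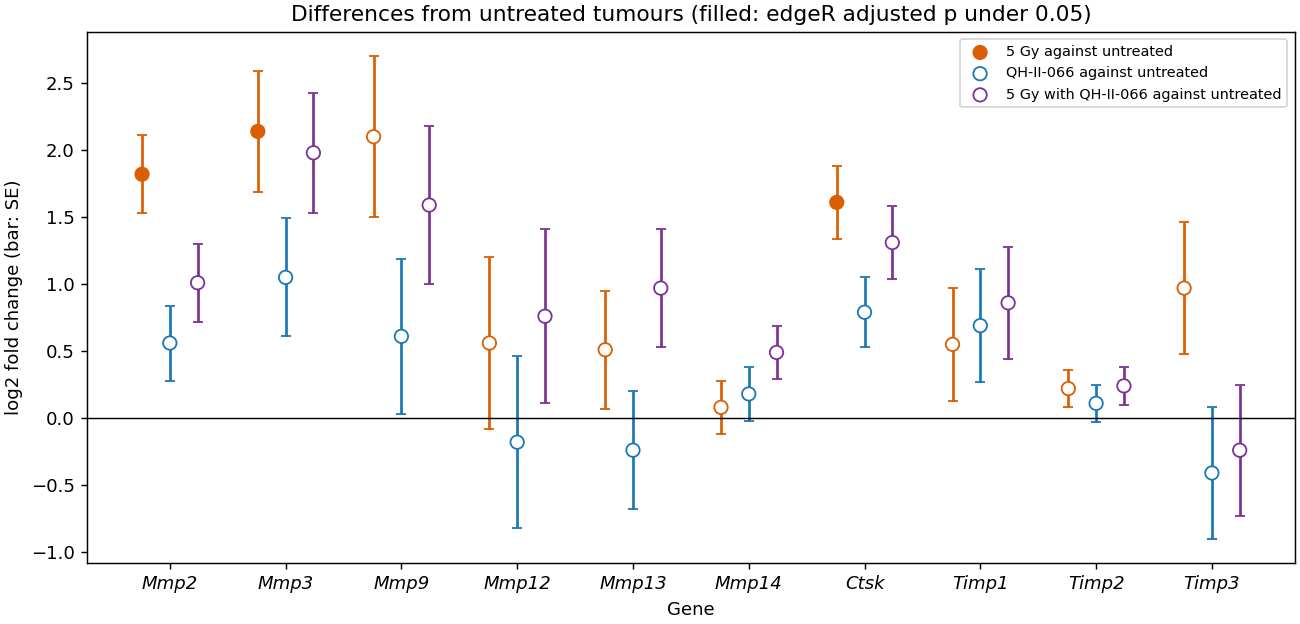
Log2 fold change of the 10 genes against untreated tumours (points) with the SE from the edgeR model (bars), for 5 Gy, QH-II-066 and both; the 3 comparisons share the untreated libraries. Filled points (adjusted p under 0.05) are Mmp2, Mmp3 and Ctsk after 5 Gy, and for Mmp2 the combined value of 1.01 lies between the drug's 0.56 and the 1.82 of radiation.

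Radiation followed by QH-II-066, against untreated tumours, had its largest fitted log2 differences in Mmp3, Mmp9, Ctsk and Mmp2, none with an adjusted p under 0.05. Ctsk read 30.2, 14.8, 14.1 and 18.2 CPM, all above the untreated libraries, with a log2 fold change of 1.31 ± 0.27 SE (adjusted p = 0.298 in edgeR). That p, unadjusted 0.000176, was the smallest of the 16101 genes in this comparison. Mmp3 read 46.8, 29.4, 14.4 and 37.8 CPM, also without overlap, and its log2 fold change was 1.98 ± 0.45 (SE; edgeR adjusted p = 0.298). Mmp2 read 41.8, 19.2, 21.4 and 36 CPM, a log2 fold change of 1.01 ± 0.29 (SE). Replicates 1 and 4 were the high ones and replicates 2 and 3 stood just above the untreated range. Mmp9 read 5.60, 5.96, 3.49 and 5.51 CPM, the group with the smallest ratio of highest to lowest for this gene, with a log2 fold change of 1.59 ± 0.59 (SE).

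Non-overlap with the untreated libraries held for 4 of the 10 genes in the combined group (Mmp2, Mmp3, Mmp9 and Ctsk), against 2.53% of all genes tested. The edgeR test called 0 of them, as it called 0 of all genes (0%), with 2615 genes at an unadjusted p under 0.05. DESeq2 called 206 genes, among them Ctsk (adjusted p = 0.000753), Mmp3 (0.00169) and Mmp2 (0.0439), and limma-voom called 0. The fitted log2 fold change was above 0 for 9 of 10 genes, with a median of 0.91 against 0.00 over all tested genes. Mmp13 read 21.8, 18.7, 12.7 and 7.15 CPM, with 3 libraries above the untreated range, and its log2 fold change was 0.97 ± 0.44 (SE; edgeR adjusted p = 0.300). Mmp14 read 364, 210, 257 and 460 CPM and Timp1 read 82.0, 36.4, 47.6 and 132 CPM, with log2 fold changes of 0.49 ± 0.20 and 0.86 ± 0.42 (SE). Replicates 1 and 4 were high for both genes, and replicate 4 is the shallowest library, at 6994198 fragments. Mmp12, Timp2 and Timp3 had fitted values of 0.76 ± 0.65, 0.24 ± 0.14 and -0.24 ± 0.49. Fibroblast markers summed to 149 to 433 CPM in this group and were highest in replicates 1 and 4 as well, and their part was not tested.

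Setting the combined group against 5 Gy alone asked what the drug added to radiation. Mmp2 was lower in the combined group, at 29.6 ± 11 against 51.9 ± 14.8 CPM (SD, n = 4), which is a log2 fold change of -0.81 ± 0.28 SE (adjusted p = 0.209 in edgeR; 95% interval -1.42 to -0.21) that did not pass the test. Timp3 was at 17.9 ± 9.69 against 41.1 ± 16.4 CPM, for a log2 fold change of -1.22 ± 0.49 SE (adjusted p = 0.220 in edgeR). For Mmp3 and Ctsk the log2 differences were -0.16 ± 0.43 and -0.30 ± 0.26 (SE), and both turned positive, to 0.02 and 0.55, without the libraries with skin transcripts. That fit kept 1 combined library, assumed to vary as the other groups do. Mmp14 differed by 0.41 ± 0.20 (SE), Mmp9 by -0.51 ± 0.57, Mmp12 by 0.20 ± 0.64, Mmp13 by 0.46 ± 0.44, Timp1 by 0.31 ± 0.42 and Timp2 by 0.02 ± 0.14. Against QH-II-066 alone the differences were above 0 for 10 of 10 genes, with a median of 0.48, the largest being 1.21 ± 0.45 (SE) for Mmp13. The others were 0.99 for Mmp9, 0.94 for Mmp12, 0.93 for Mmp3, 0.52 for Ctsk, 0.45 for Mmp2, 0.31 for Mmp14, 0.16 for Timp1 and Timp3 and 0.13 for Timp2, and the edgeR adjusted p was 1 for all 10. In each of these comparisons edgeR called 0 of 16101 genes (0%), with 3136 and 588 at an unadjusted p under 0.05. DESeq2 called 123 and 48 genes, and limma-voom 69 and 0, none of them among the 10.

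The interaction term asked whether the log2 difference made by the drug was the same with and without radiation. It was -1.38 ± 0.40 for Mmp2 (SE; edgeR adjusted p = 0.484), -1.21 ± 0.62 for Mmp3 (0.767) and -1.09 ± 0.37 for Ctsk (0.512). These 3 genes were called after 5 Gy and the interaction subtracts that same difference, so a negative sign is favoured by the way they were picked out. Of the genes not called, Mmp9 was at -1.12 ± 0.82, Timp3 at -0.81 ± 0.69, Timp1 at -0.38 ± 0.59 and Timp2 at -0.09 ± 0.19. Mmp13, Mmp12 and Mmp14 were positive, at 0.71 ± 0.62, 0.38 ± 0.91 and 0.24 ± 0.28. For Mmp2, Mmp3 and Ctsk the mean of the drug group lay above that of untreated tumours, and the mean of the combined group below that of the 5 Gy group. None of the 10 passed the edgeR test, where 0 of 16101 genes (0%) did, with 1121 at an unadjusted p under 0.05. DESeq2 called 59 genes and none of the 10. With sample weights limma-voom called 497, including Mmp2 (adjusted p = 0.0312) and Ctsk (0.0156), and without the libraries with skin transcripts the values were -0.98 ± 0.45 for Mmp2, -1.04 ± 0.70 for Mmp3 and -0.25 ± 0.42 for Ctsk.

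The balance of proteases and inhibitors was described by sums per length. The 6 metalloproteases summed to 69.3 ± 9.51 RPKM in untreated tumours, 104 ± 20.1 after 5 Gy, 82.8 ± 8.31 under the drug and 115 ± 33.5 in the combined group (SD, n = 4). Mmp14 made up 77.2 ± 2.4% of that sum in untreated tumours and 54.8 ± 5.18% after 5 Gy, and the libraries did not overlap, from 73.7 to 79.2% against 51.1 to 62.5%. Its share was 73.3 ± 7.98% under the drug and 64.8 ± 7.03% in the combined group. Mmp14 itself was at 53.5 RPKM in untreated and 56.4 in irradiated tumours, while Mmp2 went from 4.83 to 17.1 and Mmp3 from 4.52 to 19.9. The 3 Timp genes summed to 91.2 ± 15.6, 122 ± 29.7, 123 ± 35.5 and 137 ± 52.1 RPKM in the same order of groups. The ratio of the Timp sum to the metalloprotease sum was 1.32 ± 0.081 in untreated tumours, 1.17 ± 0.122 after 5 Gy, 1.46 ± 0.353 under the drug and 1.17 ± 0.164 in the combined group. These ranges overlapped, from 1.21 to 1.40 in untreated and from 1.06 to 1.29 in irradiated libraries. RNA ratios do not give the ratio of the proteins.

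**Figure D3:**
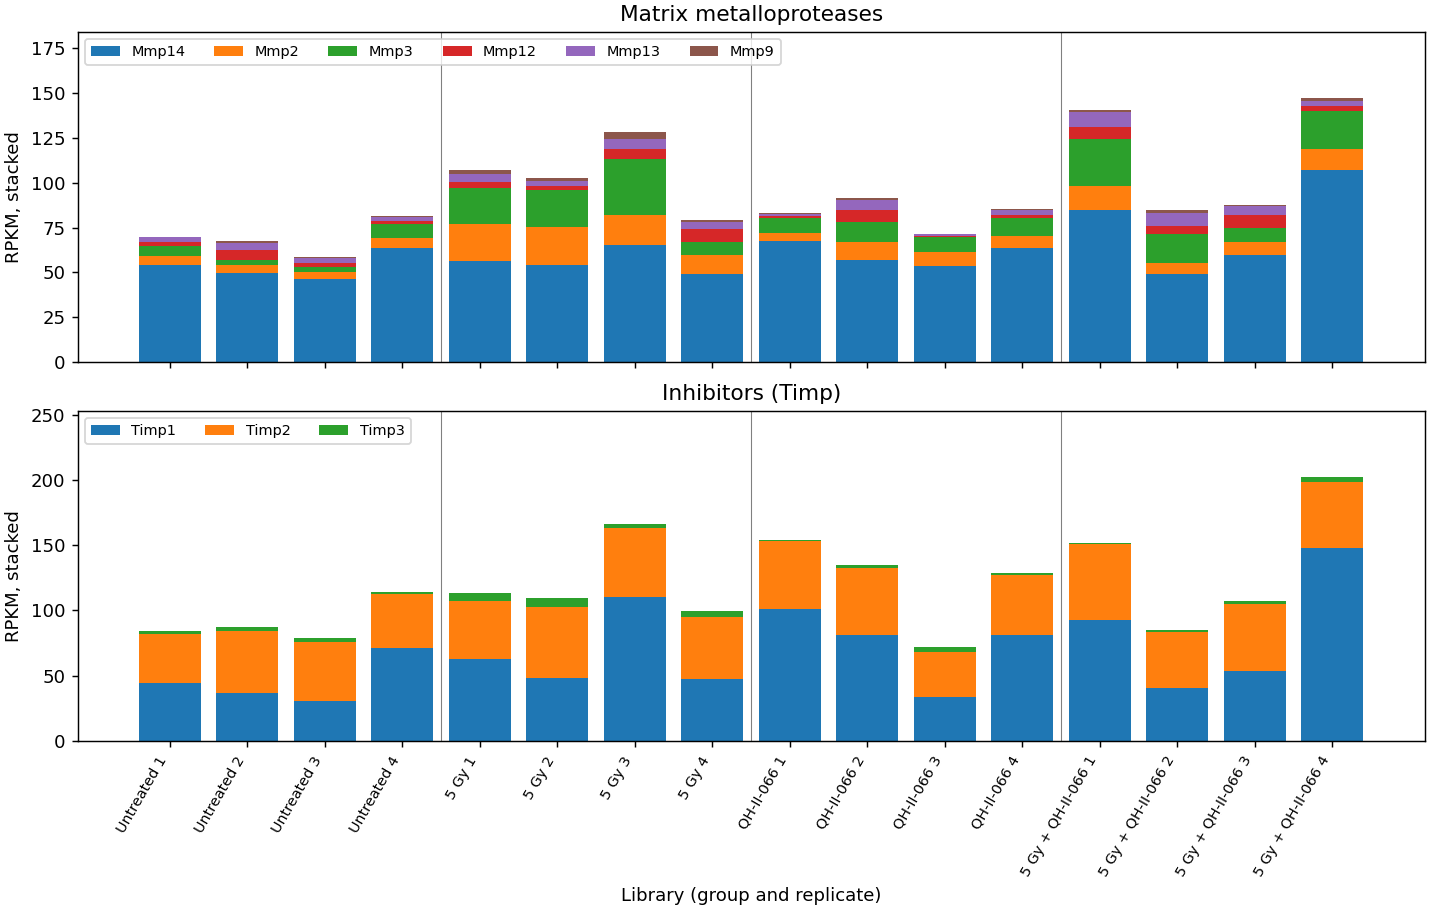
Stacked levels in RPKM of the 6 metalloproteases (upper panel) and of the 3 Timp genes (lower panel) in each of the 16 libraries, on axes that start at 0. Mmp14 fills most of every metalloprotease bar, with a mean share of 54.8% in irradiated tumours, where the Mmp2 and Mmp3 segments are widest on average but Mmp3 in replicate 4 is as thin as in untreated replicate 4.

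Several of the 10 genes varied together across the 16 libraries. These correlations of log2 CPM are descriptions: the points share libraries and treatment groups, and 45 pairs were looked at. Mmp2 and Ctsk ran closest, with Pearson r = 0.92 and Spearman rho = 0.94, with 0.90 after leaving out the 2 libraries farthest from the median and 0.82 for deviations from the group means. Mmp3 joined them, with r = 0.86 to Ctsk (rho = 0.80, 0.76 and 0.58 in the same order) and 0.83 to Mmp2 (rho = 0.81, 0.84 and 0.70). Mmp12 and Mmp13, both in the run on chromosome 9, formed a second set with r = 0.87 (rho = 0.81, 0.77 and 0.81), so the scatter seen under the drug was shared by both. Mmp3 lies in the same run and had r = 0.13 to Mmp12 and 0.38 to Mmp13. Mmp14 and Timp1 were the third set, with r = 0.87 (rho = 0.93, 0.89 and 0.89). Mmp9 was not clearly in a set, with r = 0.74 to Mmp3, 0.71 to Mmp2, 0.69 to Ctsk and 0.61 to Mmp13. Its rho to these genes was 0.81, 0.74, 0.78 and 0.76. For deviations from the group means the values were 0.39, 0.30, 0.15 and 0.52 in the same order. Timp2 ran from r = 0.43 to 0.63 with the other genes except Timp3. Timp3 had r = 0.43 to Mmp2 (0.06 without the 2 farthest libraries), 0.21 to Ctsk, -0.41 to Timp1 and -0.33 to Mmp14.

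**Figure D4:**
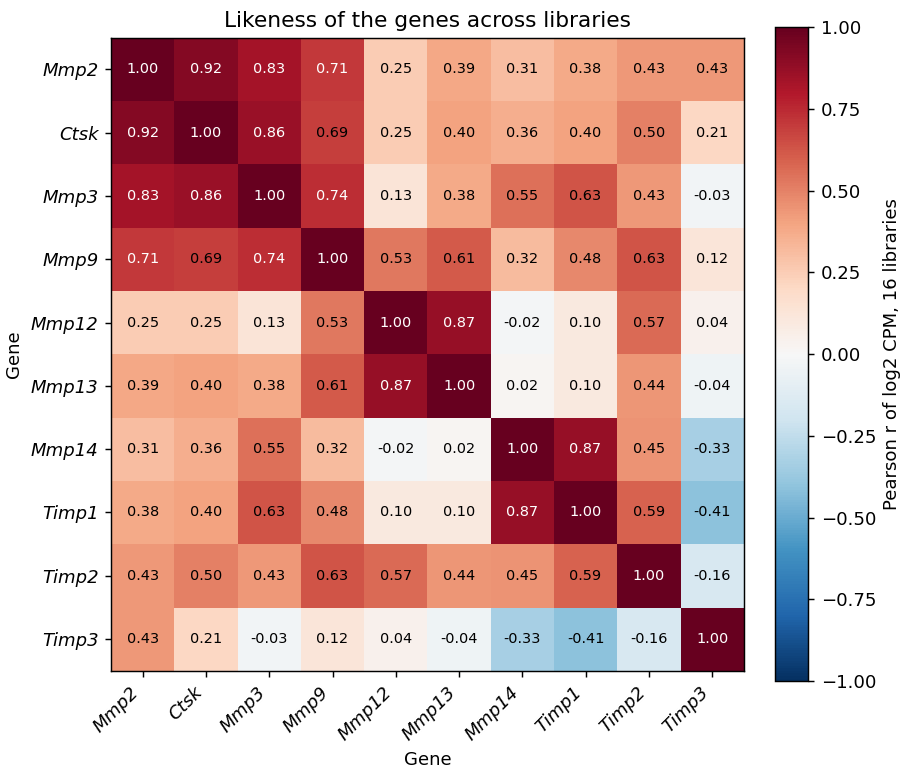
Pearson r of log2 CPM over 16 libraries for each pair of the 10 genes, on a colour scale from -1 to 1. Dark red blocks join Mmp2, Ctsk and Mmp3, then Mmp12 and Mmp13 (0.87), then Mmp14 and Timp1 (0.87), and Timp3 ranges from 0.43 with Mmp2 to -0.41 with Timp1.

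Outside the 10 genes, the nearest patterns to each were named by the highest r among genes whose mean log2 CPM was 1 or more. For Mmp2 they were the fibrillar collagen chains Col3a1 (r = 0.968), Col1a2 (0.959) and Col1a1 (0.957). Ctsk was nearest to Rnase4 (0.947), Fap (0.934), a protease of activated fibroblasts, and Gas1 (0.933). Mmp3 was nearest to Cpxm1 (0.904), Srpx2 (0.882) and Tcim (0.867). Mmp12 and Mmp13 had nearest genes in common: Mmp12 had Arg1 (0.898), the arginase of some macrophages, Adam8 (0.850) and Mcoln2 (0.838), and Mmp13 had Mcoln2 (0.874), Arg1 (0.869) and Spp1 (0.790). Mmp9 had Klf6 (0.889), the matrix protein tenascin Tnc (0.886) and Ndufa4l2 (0.867). Mmp14 had Eif5b (0.956), Efemp2 (0.945) and Ehd1 (0.936), and Timp1 had Ostf1 (0.924), Efemp2 (0.919) and Ddah2 (0.912). Timp2 had Calml4 (0.924), Ccn2 (0.852) and Clec4d (0.847). Timp3 had Slfn5 (0.975), Ankrd13a (0.956) and Fzd4 (0.955).

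Timp3 and Timp1 also differ in transcript length, and libraries differed in how high they read long genes. The gene length slope, which says whether long or short genes read high in a library and can follow RNA quality, ran from -0.248 to 0.228. Timp3, with 8144 exon bases, was lowest at 6.99 and 7.33 CPM in QH-II-066 replicate 1 and combined replicate 1, whose slopes of -0.247 and -0.248 were the lowest. The short Timp1, with 888 exon bases, read 90.1 and 82.0 CPM in those libraries, above the mean of every group. Timp1 was higher still, at 132 and 97.5 CPM, in combined replicate 4 and 5 Gy replicate 3, with slopes of -0.109 and -0.0511. The cause of these levels was not tested. With the slope as a covariate the log2 fold change of Timp3 against untreated tumours went from -0.41 to 0.20 under the drug and from -0.24 to 0.51 in the combined group. Those of Mmp2, Mmp3 and Ctsk after 5 Gy stayed at 1.86, 2.34 and 1.68, and each of the 3 was called.

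Other protease genes were read from lists. After 5 Gy 1.26% of all tested genes were called and their median log2 fold change was -0.08, so 0 called in a short list says little. Of 17 further metalloproteases 10 were tested after 5 Gy, 0 were called, and 10 of 10 had a log2 fold change above 0, with a median of 0.97. Several of them had few counts, such as Mmp27, Mmp28 and Mmp25 with 121, 187 and 271 over all 16 libraries. The nearest to the threshold was the membrane-type enzyme Mmp15, at 5.73 ± 1.67 against 2.74 ± 0.180 CPM (SD, n = 4), which is a log2 fold change of 1.06 ± 0.26 SE (adjusted p = 0.0525 in edgeR) without overlap. Of 10 further inhibitors 1 was called, Serpine2 (protease nexin 1, an inhibitor of thrombin and plasminogen activators), with a log2 fold change of 1.38 ± 0.28 SE (adjusted p = 0.0331 in edgeR). Of 8 activators and binding partners, with Furin, Plau and Bsg among them, 7 were tested and 0 called, with a median of 0.26. Of 12 other cathepsins and legumain tested as 1 list, 1 gene was called, Ctsf, with a log2 fold change of 1.65 ± 0.38 SE (adjusted p = 0.0444 in edgeR), and the median of the list was 0.47.

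Of 20 ADAM and ADAMTS proteases tested, 3 were called higher after 5 Gy, where 1.26% of all genes were called. The median was 0.25 over the list and -0.08 over all tested genes. Adamts2, which trims the ends of procollagens, read 34.2, 36.8, 21.6 and 29.5 CPM against 8.02, 10.3, 7.45 and 6.12 CPM, for a log2 fold change of 1.93 ± 0.32 SE (adjusted p = 0.0227 in edgeR). Adamts5, an aggrecanase, had 1.71 ± 0.36 (adjusted p = 0.0386). Adamts8 was called (adjusted p = 0.0470) on very few reads: 0.569, 0.533, 0.101 and 0.237 CPM after 5 Gy against 1 count in the 4 untreated libraries together, and no fold is given for it. Among 8 matrix proteins that these enzymes cut, 4 were called higher and the median was 2.16, with Col1a1 at 2.33 ± 0.38, Col1a2 at 2.35 ± 0.42, Col3a1 at 2.52 ± 0.43 and the proteoglycan Vcan at 1.98 ± 0.44 (SE). The fitted differences of these 3 fibrillar collagen chains were above those of Mmp2 and Ctsk, and that of the basement membrane chain Col4a1, 0.81 ± 0.30 (SE), was below them; differences between genes were not tested. For the drug or the combined group against untreated tumours edgeR called 0 of 16101 genes, so none of these lists could hold a call there.

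**Figure D5:**
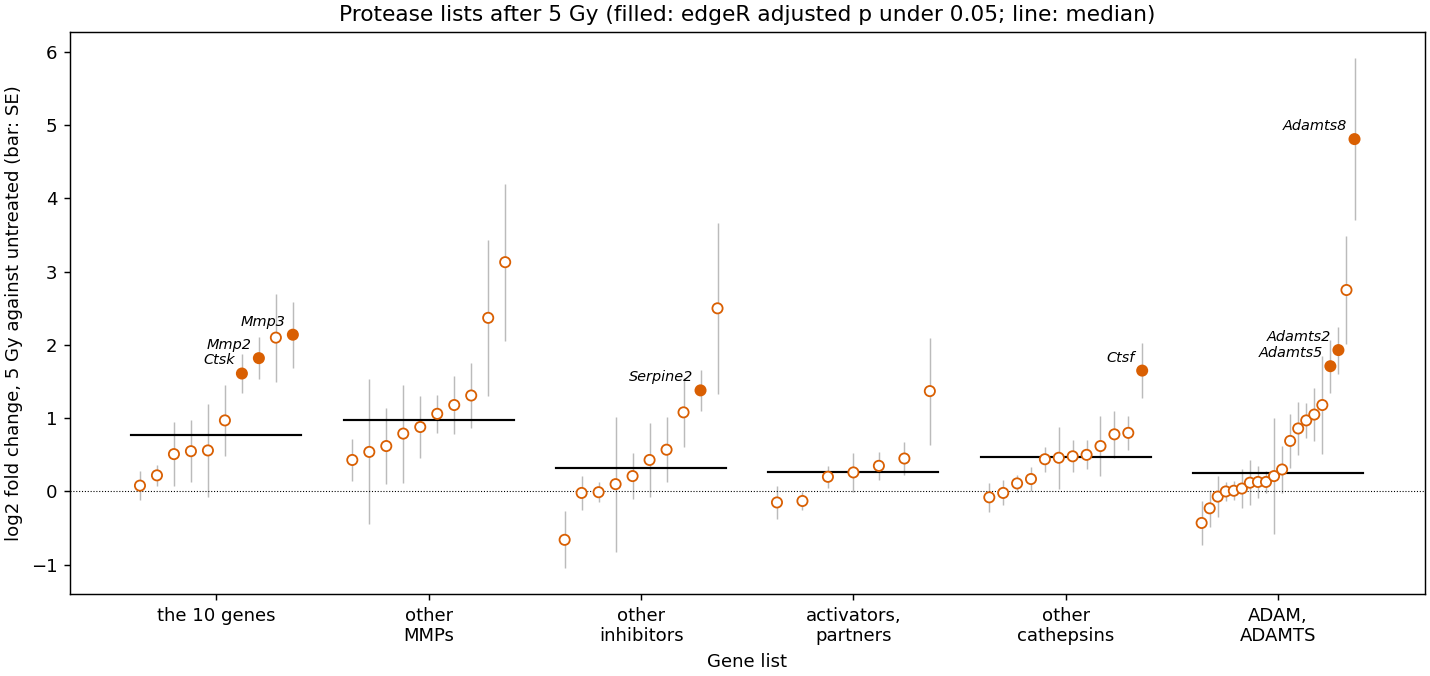
Log2 fold change after 5 Gy against untreated tumours (points) with SE (bars) for each tested gene of 6 protease lists, sorted within a list, and the list's median (line). Filled points passed an edgeR adjusted p under 0.05; the medians are 0.77 for the 10 genes, 0.97 for other metalloproteases and 0.25 for ADAM and ADAMTS genes.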

How the data were processed

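RNA from 16 tumours' libraries, 4 per group, was prepared by transcriptome capture and sequenced on a HiSeq instrument, per the labels' protocols. The submitters' processing notes name STAR 2.4.1a, featureCounts, edgeR and mm10. Read pairs were counted with featureCounts 1.6.0 over exons, with no strand option, per the file headers, and the authors deposited whole-number counts without normalization. Of 46078 genes, 45143 had a symbol.

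The 4 group means were fitted over all libraries at once with edgeR 4.0.16 under R 4.3.3, after filterByExpr and scaling by TMM. Tests were its robust quasi-likelihood tests, two-sided, with Benjamini-Hochberg adjustment over 16101 genes and a threshold of 0.05. CPM are TMM-scaled, RPKM divide them by exon length, and log2 CPM used a prior count of 2. The exon length column of the deposited table served for that and for the length slope. The 10 genes and the lists were chosen with earlier results of these data known, so no list is tested as such. All 10 genes are given in every comparison, and of the other lists the called genes, up to 4 a list. The script was tested on simulated data. Other settings were DESeq2 1.42.0, limma-voom (limma 3.58.1) with sample weights, RLE scaling, 2 other filters, a replicate block, a fit of the compared groups, and each library left out. Added after the data were seen were fits that leave out the libraries with skin transcripts or take the skin score, the muscle score or the length slope (of a library's log2 CPM deviations on log2 exon length) as a covariate. Counting precision is set by 6994198 to 40799942 fragments per library, and no molecular identifiers mark duplicates.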

Additional observations from a re-analysis of the deposited data

Results flagged for a closer look

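Mmp9 in replicate 3 of the combined group stood apart from its group, at a log2 CPM of 1.83, while the other 3 libraries lay between 2.48 and 2.59. It was picked out because its gap to the nearest library is 0.853 of the whole range of the group. Of 40 groups of 4 libraries examined this was the 1 so marked, and chance marks about 1 in 20. At 3.49 CPM the library still lay above every untreated library.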

How the results depend on the processing

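With 4 libraries per group, edgeR's calls after 5 Gy rested on single libraries: leaving out 1 at a time gave 0 to 739 genes called (203 in the fit reported) and 0 to 3 of the 10 members (3). DESeq2 called 1224 genes after 5 Gy, 16 under the drug, 206 in the combined group against untreated (3 members), 123 against 5 Gy, 48 against QH-II-066 and 59 for the interaction. Of 16101 genes, limma-voom with sample weights (0.314 to 2.94) called 802 after 5 Gy and 4647 under the drug (3 members). It called 69 in the combined group against 5 Gy and 497 for the interaction (2 members). Calls after 5 Gy came to 22 genes and 1 member when the libraries with skin transcripts were left out, 13 and 1 under the skin score, and 2 and 0 with the muscle score as a covariate. The skin score also gave 1 call against QH-II-066 and 1 for the interaction. The fits without a filter, with the replicate block and with the compared groups alone called 2 members, Mmp3 being lost at adjusted p = 0.0549, 0.0548 and 0.0691. The block gave 154 genes. Same-numbered libraries deviated together (r over 0.1) in 12 of 24 pairs, and 8 of 16 libraries correlated best with their own number. The labels do not say that the number marks a pairing, so the reported fit leaves it out. Whether same-numbered libraries share a batch was not tested.

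In the settings run, signs changed only for differences that the reported fit did not call. In the combined group against 5 Gy these were Timp2 (-0.04 without a filter, -0.12 with the length slope), Timp1 (-0.05 with limma-voom, -0.46 with the slope), and, without the libraries with skin transcripts, Mmp3 (0.02) and Ctsk (0.55). Against QH-II-066 they were, with limma-voom, Mmp2 (-0.04) and Timp1 (-0.52), and Timp3 (-1.10 without the libraries with skin transcripts, -0.54 with the skin score, -0.25 with the muscle score). With the length slope, Mmp14 (-0.02), Timp2 (-0.02) and Timp3 (0.20) under the drug and Timp3 (0.51) in the combined group against untreated changed too. For the interaction they were Mmp14 (-0.04, limma-voom) and Timp2 (0.14, without the libraries with skin transcripts). Leaving out 1 library at a time, the log2 values ran from -0.01 to 0.17 for Mmp14 after 5 Gy and from -1.32 to 0.37 for Mmp12 under the drug. They ran from -0.58 to 0.02 for Timp3 in the combined group against untreated. Against 5 Gy they were -0.05 to 0.10 for Timp2, -0.04 to 0.52 for Mmp12, -0.42 to 0.14 for Mmp3, -0.74 to 0.02 for Mmp9 and -0.11 to 0.65 for Timp1. Against QH-II-066 they were -0.26 to 0.39 for Timp1 and -0.18 to 0.70 for Timp3, and for the interaction -0.17 to 1.52 for Mmp12. The cause of these changes was not tested.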
